A study of Mus musculus with 11 samples.

Results

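A set of 9 adipocyte genes was followed in RNA of mouse small intestine: Adipoq, Lep, Retn, Cfd, Plin1, Fabp4, Car3, Lpl and Lipe. They were taken by symbol from the authors' table of all libraries, where each of the 9 had a row among 24250 genes. The 11 libraries fell into 3 groups. FSP (n = 4) received 5 Substances Powder with Poria, a mixture of traditional Chinese medicine, HFD (n = 4) is read as a high-fat diet, and ND (n = 3) as a normal diet. The diet of the FSP group and the age, sex, strain, dose and duration of any group are not stated in the labels, nor is the piece of small intestine that was taken or whether mesentery was removed. The labels do not say that each library is a separate animal, so a p-value here reflects how far the samples of a group differ, and some of that may be technical.

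White adipocytes keep triglyceride in a droplet coated by perilipin, load it with fatty acids that lipoprotein lipase frees from circulating lipoproteins, and release it through hormone-sensitive lipase. They also secrete hormones, among them leptin and adiponectin, which report fat stores and act on insulin sensitivity. Fat lines the border where the mesentery meets the small bowel, and most of these genes have little known use in the gut epithelium. Of the 9, Lipe did not follow the others from library to library, and no marker used here tells mesenteric fat from other fat. In bulk RNA, fewer cells of a type and less RNA per cell cannot be told apart.

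Values are FPKM, the fragments of a gene scaled to its length and to the library's total, and libraries held 31843300 to 38245800 fragments. The 9 genes together made up 0.0494%, 0.00852%, 0.0175% and 0.107% of summed FPKM in FSP 1 to FSP 4, against 0.00858%, 0.0329%, 0.0224% and 0.0181% in HFD 1 to HFD 4 and 0.0220%, 0.0204% and 0.0146% in ND 1 to ND 3. Libraries of the FSP group thus held both extremes. FSP 4 was the highest of the 11 libraries for 8 of the 9 genes and FSP 1 the second highest for the same 8. FSP 2 was the lowest for 7 genes. Mitochondrially encoded protein genes took 40.4% of summed FPKM in HFD 1, 12.9% to 21.9% in FSP, 18.1% to 26.3% in the other HFD libraries and 16.3% to 22.2% in ND, and a large share of one class lowers the FPKM of every other gene. With the libraries rescaled without these genes, log2 changes of FPKM + 1 for HFD against ND were 1.11 for Adipoq, −0.96 for Cfd, 0.80 for Lep and 1.34 for Lpl. On the deposited values they were 1.09, −0.99, 0.79 and 1.31. The part of that share in the values of HFD 1 alone was not tested.

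**Figure D1:**
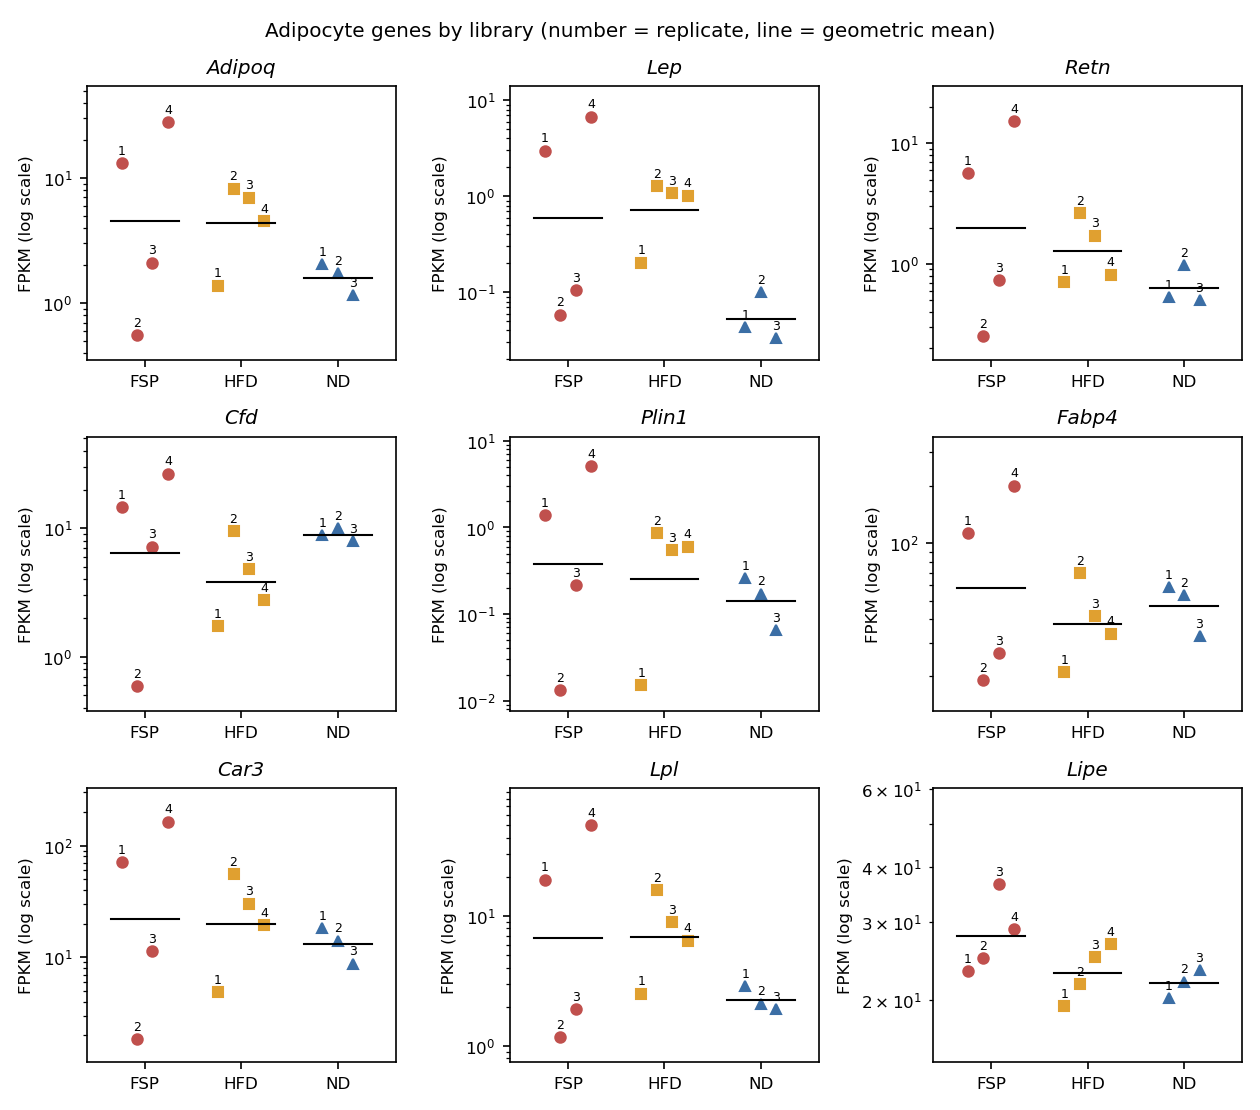
FPKM of the 9 adipocyte genes in each library on a log axis, with the FSP, HFD and ND groups from left to right, the replicate number above each point and a line at the geometric mean of the group. FSP 4 and FSP 1 lie at the top in 8 panels and FSP 2 near or at the bottom, whereas Lipe stays between 19.4 and 36.6 FPKM in all libraries.

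Promoter sequences are shown for 3 genes whose levels moved together across libraries and whose promoters held a match to a C/EBP or CCAAT motif. They come from RefSeq (GRCm38.p6), which had entries for 6 of the 9 genes, and each gives the 250 bases before an annotated start site, 5′ to 3′ on the strand of the gene. Capitals mark matches to TTGCNNAA, bound by C/EBP factors, or to CCAAT or its complement. The Lep sequence is chr6:29059971-29060220 on the plus strand, the Plin1 sequence chr7:79732777-79733026 on the minus strand and the Adipoq sequence chr16:23146286-23146535 on the plus strand.
Lep: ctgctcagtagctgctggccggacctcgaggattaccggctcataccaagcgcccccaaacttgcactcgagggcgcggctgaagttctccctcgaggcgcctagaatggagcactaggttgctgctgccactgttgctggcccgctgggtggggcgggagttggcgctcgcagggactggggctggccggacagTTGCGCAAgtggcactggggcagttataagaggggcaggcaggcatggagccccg
Plin1: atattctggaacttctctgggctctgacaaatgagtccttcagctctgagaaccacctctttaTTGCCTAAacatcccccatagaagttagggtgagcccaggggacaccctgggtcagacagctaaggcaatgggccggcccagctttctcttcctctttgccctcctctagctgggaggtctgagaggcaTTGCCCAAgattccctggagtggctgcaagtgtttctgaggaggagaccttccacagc
Adipoq: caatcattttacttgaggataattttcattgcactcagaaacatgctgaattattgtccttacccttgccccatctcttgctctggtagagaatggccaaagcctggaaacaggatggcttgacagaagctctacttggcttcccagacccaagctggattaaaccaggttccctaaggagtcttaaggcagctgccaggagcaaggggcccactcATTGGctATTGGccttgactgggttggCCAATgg
Both strands were searched, over 250 bases before and 50 after the start. Lep held 1 C/EBP match, whose first base lies 55 bases before the start, and Plin1 held 2, at 187 and 58 bases before it. Of 32851 promoters of the same length, 10.8% held this motif, as did 2 of the 7 member promoters. Adipoq had 3 CCAAT matches, the closest 7 bases before the start, and 37.4% of all promoters held CCAAT. It was the only 1 of the 7 with this motif. Retn, whose level also followed Adipoq, held neither. None of the members' promoters in the table held TATAAA or AGGTCA, a motif of nuclear receptors, which 13.6% and 16.3% of all promoters held. Matches are letters in a window and were not tested for binding.

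Among the secreted hormones, adiponectin and leptin had the highest arithmetic mean in FSP, a lower one in HFD and the lowest in ND. These FSP means rest mainly on FSP 1 and FSP 4, and the FSP libraries spanned the range of the other groups. Adipoq (chr16:23146536-23158028) encodes adiponectin. It had 13.2, 0.551, 2.11 and 27.95 FPKM in FSP 1 to FSP 4, against 1.38, 8.22, 6.99 and 4.53 FPKM in HFD 1 to HFD 4 and 2.05, 1.73 and 1.16 FPKM in ND 1 to ND 3. FSP 2 lay below every HFD and ND library and FSP 4 above all of them, and 3 of 4 HFD libraries lay above all ND libraries. These values rest on 25 fragments in FSP 2 and 1317 in FSP 4, so counting error was 20% and 2.76% of the value. The log2 change of FPKM + 1 was 1.09 ± 0.84 for HFD against ND (SE, limma adjusted p = 0.350), 0.26 ± 0.78 for FSP against HFD (limma adjusted p = 0.905) and 1.35 ± 0.84 for FSP against ND (limma adjusted p = 0.486). Without FSP 4 the FSP-against-HFD change was −0.45, and it was also below 0 without FSP 1 (−0.10) or HFD 1 (−0.15).

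Lep (chr6:29060220-29073877) encodes leptin, the hormone that signals fat mass to the brain. It had 2.98, 0.0584, 0.105 and 6.74 FPKM in FSP 1 to FSP 4, against 0.203, 1.26, 1.07 and 1.01 FPKM in HFD 1 to HFD 4 and 0.0436, 0.101 and 0.0331 FPKM in ND 1 to ND 3. Every HFD library lay above every ND library, and it was the only one of the 9 genes whose HFD and ND values did not overlap, where 42.9% of 10296 genes did not overlap and 9.28% were higher in HFD without overlap. The ND values rest on 5, 12 and 4 fragments and the HFD values on 21, 139, 124 and 123. Mean Lep was 0.889 ± 0.470 FPKM in HFD (SD, n = 4) and 0.0591 ± 0.0363 FPKM in ND (SD, n = 3), a fold of 15.05 between the means. The log2 change of FPKM + 1, which understates the change of a gene this low, was 0.79 ± 0.59 (SE) and did not pass the threshold (limma adjusted p = 0.330). The exact permutation test of the same values gave p = 0.0571 (two-sided), where the smallest possible is 0.0286, and p = 0.600 after adjustment over 27 tests. Fitted on the HFD and ND libraries alone, without the wide spread of FSP, the same change had an SE of 0.22 and passed (limma adjusted p = 0.0375), as did 2199 of 10296 genes. That fit kept the genes chosen on all 11 libraries, among which Lep was included through its FSP level, since its mean was under 1 FPKM in HFD and in ND. FSP 2 and FSP 3 had Lep within or just above the ND range and FSP 1 and FSP 4 lay above every HFD library, so FSP overlapped both groups, with changes of 0.42 ± 0.54 against HFD and 1.21 ± 0.59 against ND (SE, limma adjusted p = 0.740 and 0.373).

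Retn (chr8:3655770-3660110) encodes resistin, an adipocyte hormone in mice that opposes insulin action. It had 5.65, 0.253, 0.734 and 15.2 FPKM in FSP 1 to FSP 4, against 0.708, 2.62, 1.71 and 0.813 FPKM in HFD 1 to HFD 4 and 0.529, 0.975 and 0.502 FPKM in ND 1 to ND 3. HFD overlapped ND, and FSP spanned both. Its changes were 0.50 ± 0.71 for HFD against ND, 0.73 ± 0.66 for FSP against HFD and 1.24 ± 0.71 for FSP against ND (log2, SE), none past the threshold. Without FSP 4 they were 0.052 for FSP against HFD and 0.56 for FSP against ND, and without FSP 2 the change for FSP against HFD was 1.28.

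Cfd (chr10:79890853-79892655) encodes complement factor D, also called adipsin, the protease that starts the alternative complement pathway. It differed from the other hormones in the order of the groups. It had 14.6, 0.589, 7.17 and 26.5 FPKM in FSP 1 to FSP 4, against 1.74, 9.48, 4.81 and 2.76 FPKM in HFD 1 to HFD 4 and 8.83, 10.03 and 7.97 FPKM in ND 1 to ND 3. The 3 ND libraries lay close together, with a mean of 8.95 ± 1.04 FPKM (SD, n = 3), and 3 of 4 HFD libraries lay below all of them. HFD 2 fell inside the ND range. The log2 change was −0.99 ± 0.77 for HFD against ND (SE, limma adjusted p = 0.358) and 0.79 ± 0.72 for FSP against HFD (SE, limma adjusted p = 0.606). For FSP against ND it was −0.20 ± 0.77, and 0.62 without FSP 2. The FSP-against-HFD change ran from 0.23 without FSP 4 to 1.6 without FSP 2.

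Of the droplet and fatty acid proteins, Plin1 (chr7:79720218-79732903) encodes perilipin 1, the coat of the adipocyte droplet. It had 1.39, 0.0132, 0.216 and 5.14 FPKM in FSP 1 to FSP 4, against 0.0152, 0.861, 0.547 and 0.598 FPKM in HFD 1 to HFD 4 and 0.261, 0.172 and 0.0652 FPKM in ND 1 to ND 3. FSP 2 and HFD 1 had 1 fragment each. With a mean of 0.844 FPKM over the 11 libraries it was the only member below 1 FPKM, the level a gene needed to be tested, so 8 of 9 members were tested across all genes. Its exact permutation p was 0.20 for HFD against ND, 0.571 for FSP against HFD and 0.371 for FSP against ND (two-sided).

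Fabp4 (chr3:10204088-10208576) encodes the fatty acid binding protein of adipocytes, which macrophages and capillary endothelium also use. It was the most abundant of the 9 per length, with 113, 19.2, 26.4 and 200.3 FPKM in FSP 1 to FSP 4, against 21.0, 69.4, 41.5 and 33.5 FPKM in HFD 1 to HFD 4 and 58.7, 53.2 and 32.6 FPKM in ND 1 to ND 3. HFD and ND overlapped, and FSP held the lowest and the highest library. The log2 changes were −0.30 ± 0.70 for HFD against ND, 0.62 ± 0.65 for FSP against HFD and 0.32 ± 0.70 for FSP against ND (SE), and the last was −0.26 without FSP 4. The FSP-against-HFD change ran from 0.035 without FSP 4 to 1.14 without FSP 2, and the HFD-against-ND change from −0.58 without HFD 2 to −0.023 without HFD 1.

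Car3 (chr3:14863512-14872523) encodes carbonic anhydrase 3, abundant in adipocytes and in slow skeletal muscle. It had 70.8, 1.86, 11.3 and 164 FPKM in FSP 1 to FSP 4, against 4.88, 55.5, 30.1 and 19.4 FPKM in HFD 1 to HFD 4 and 18.1, 14.1 and 8.76 FPKM in ND 1 to ND 3. FSP again spanned the other groups, and HFD 1 lay below every ND library. The log2 changes were 0.60 ± 1.17 for HFD against ND, 0.25 ± 1.08 for FSP against HFD and 0.85 ± 1.17 for FSP against ND (SE). The FSP-against-HFD change was −0.65 without FSP 4, −0.25 without FSP 1 and −0.38 without HFD 1, and that for FSP against ND was −0.05 without FSP 4.

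The lipases parted. Lpl (chr8:68880491-68907448) encodes lipoprotein lipase and followed the hormones, with 19.0, 1.17, 1.90 and 50.01 FPKM in FSP 1 to FSP 4, against 2.51, 15.8, 8.90 and 6.46 FPKM in HFD 1 to HFD 4 and 2.86, 2.11 and 1.91 FPKM in ND 1 to ND 3. In HFD, 3 libraries lay above all ND libraries and HFD 1 within their range. Its changes were 1.31 ± 0.94 for HFD against ND (log2, SE, limma adjusted p = 0.316), 0.14 ± 0.87 for FSP against HFD and 1.45 ± 0.94 for FSP against ND. The FSP-against-HFD change was −0.70 without FSP 4, −0.25 without FSP 1 and −0.26 without HFD 1.

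Lipe (chr7:25379527-25398710) encodes hormone-sensitive lipase, which enterocytes also make. It had 23.3, 24.9, 36.6 and 28.9 FPKM in FSP 1 to FSP 4, against 19.4, 21.7, 25.0 and 26.8 FPKM in HFD 1 to HFD 4 and 20.2, 22.1 and 23.4 FPKM in ND 1 to ND 3. FSP 2, with the lowest Adipoq, had more Lipe than FSP 1, with the second highest Adipoq. The coefficient of variation was 20.8% in FSP, 14.2% in HFD and 7.21% in ND, against 91.0% to 141%, 49.5% to 77.7% and 11.6% to 61.5% over the other 8 genes. Its log2 changes were 0.08 ± 0.16 for HFD against ND, 0.27 ± 0.15 for FSP against HFD and 0.34 ± 0.16 for FSP against ND (SE, limma adjusted p = 0.744, 0.361 and 0.358). The HFD-against-ND change was −0.04 after the libraries were rescaled to equal totals. Exons of the antisense gene 4732471J01Rik overlap Lipe, and how the authors used strand is not stated; that gene was listed at 0.01 to 0.17 FPKM, and the other 8 members share exon bases with no annotated gene.

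**Figure D2:**
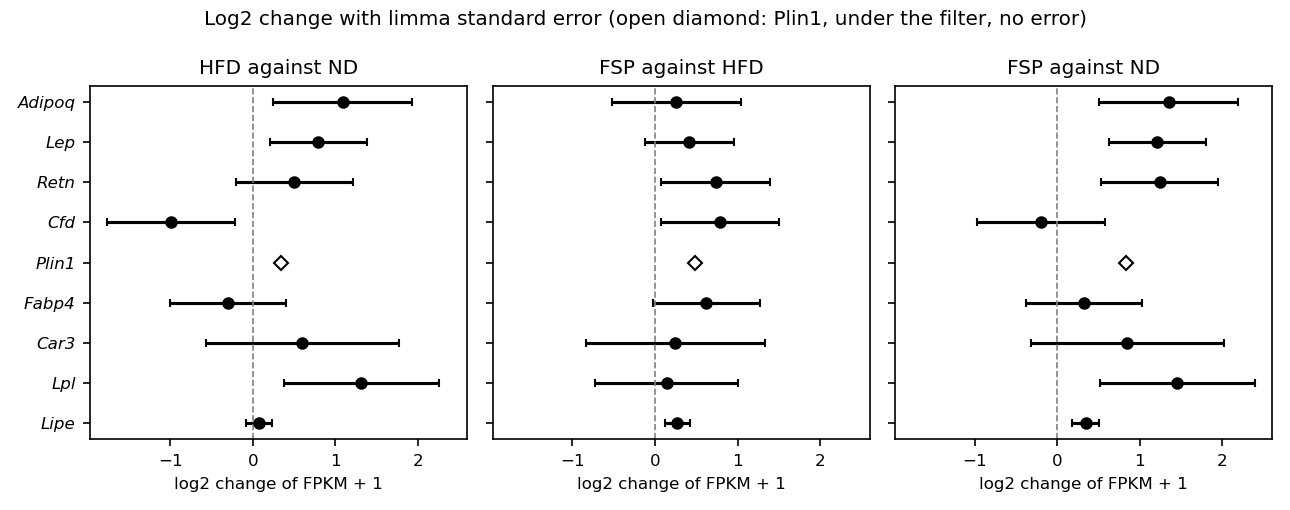
Log2 change of FPKM + 1 of each gene, HFD against ND (left), FSP against HFD (middle) and FSP against ND (right), with the limma standard error as bars and Plin1, which was not tested across all genes, as an open diamond without an error. Changes of HFD against ND run from −0.99 (Cfd) to 1.31 (Lpl), and no gene passed the threshold.

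Across the members, 0 of 8 tested passed the limma threshold (adjusted p under 0.05) in HFD against ND, where 20.5% of 10296 genes did, in FSP against HFD, where 3.74% did, and in FSP against ND, where 1.03% did. By direction, the share of genes that rose was 5.36% and that of genes that fell 15.1% for HFD against ND, 2.83% and 0.913% for FSP against HFD, and 0.699% and 0.33% for FSP against ND. None of the 9 genes separated FSP from HFD or FSP from ND without overlap, where 10.8% and 16.4% of genes did (8.52% and 5.57% higher in FSP). None of the 8 had an unadjusted limma p under 0.05 in any comparison, the smallest being 0.0548 for Lipe in FSP against ND. The exact permutation test called none of the 9 genes in the 27 tests after adjustment, with adjusted values of 0.600 or more. Its smallest possible p of 0.0286 cannot pass that adjustment for a single gene, so this count does not decide whether a member changed. The median log2 change of the 8 was 0.55 for HFD against ND, against −0.21 over all tested genes, 0.34 against 0.12 for FSP against HFD, and 1.03 against −0.07 for FSP against ND. The FSP comparisons share the FSP libraries and those with HFD share the HFD libraries, so these medians are not independent. With array quality weights limma called 6 members in HFD against ND and 3 in FSP against ND. That fit gave weights of 10.2 and 11.1 to HFD 3 and ND 2 and at most 1.21 to any other library, and it called 7217 of 10296 genes in HFD against ND and 1068 in FSP against ND.

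Mean FPKM over all libraries put Fabp4 first (60.8), then Car3 (36.3), Lipe (24.8), Lpl (10.2), Cfd (8.59), Adipoq (6.35), Retn (2.70), Lep (1.24) and Plin1 (0.844). Neighbours in this order differed by less than the SD of either over the 11 libraries, except beside Lipe, whose SD of 4.80 FPKM was smaller than its distance to Car3 and to Lpl. FSP had the highest arithmetic group mean for all 9 genes, HFD the next highest for 7, and ND the next highest for Cfd and Fabp4. No gene's group means differed past the adjusted threshold.

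Of the other 8 genes, 7 rose and fell with Adipoq from library to library. Lpl correlated with Adipoq at r = 0.987 over the 11 libraries on the log2(FPKM + 1) scale (Spearman rho = 0.90, permutation p = 1e-05 for r, the smallest that 100000 permutations can give, and 2.7e-05 adjusted over 8 relations). Lep (0.965), Car3 (0.959), Retn (0.943), Plin1 (0.938) and Fabp4 (0.870) followed, with rho between 0.818 and 0.973 and permutation p between 1e-05 and 0.00074. Without FSP 1 and FSP 4, the libraries farthest from the median of Adipoq, r was 0.967 for Lpl, 0.928 for Lep, 0.914 for Car3, 0.90 for Retn, 0.962 for Plin1 and 0.617 for Fabp4. Cfd had r = 0.689 (rho = 0.636, permutation p = 0.020, adjusted 0.023) but 0.369 without these libraries. The size of its r across groups thus depended on them, while its r over deviations from group means was 0.925. Of 10295 other tested genes, 0.194% reached r = 0.9 with Adipoq.

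The libraries also differ by group, so deviations from group means were taken. Cfd then correlated with Adipoq at 0.925 and Fabp4 at 0.978, both higher than over the raw values. Lpl (0.986), Car3 (0.989), Lep (0.965), Retn (0.957) and Plin1 (0.951) had values close to those over all libraries. For Lipe, r was 0.211 (permutation p = 0.53) over all libraries and −0.01 over the deviations. The 28 pairs among the members other than Lipe had r from 0.595 to 0.987, and the 8 pairs with Lipe 0.016 to 0.284. All these points share the libraries and their totals.

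**Figure D3:**
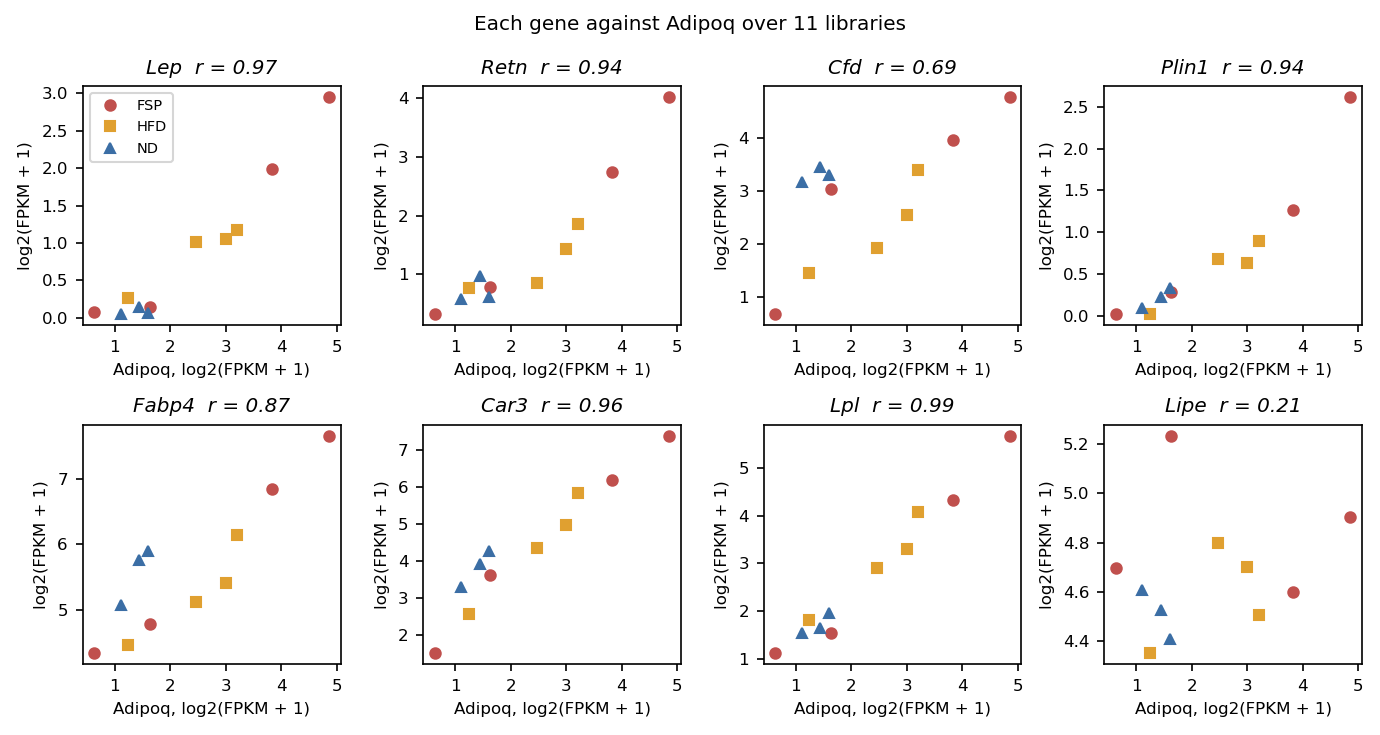
Log2(FPKM + 1) of 8 genes against that of Adipoq in 11 libraries (circles FSP, squares HFD, triangles ND), with Pearson r above each panel. Lpl lies close to a line (r = 0.99), the ND triangles sit above libraries of similar Adipoq for Fabp4 and, with FSP 3 just below them, for Cfd, and Lipe shows no trend (r = 0.21).

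Each gene was also divided by Adipoq within its library. This comparison was added after the values had been seen. Such a ratio is not free of the amount of fat where other cells also make the gene. Within FSP, Fabp4 per Adipoq was 34.8 in FSP 2, with the lowest Adipoq, and 7.17 in FSP 4, with the highest. Lipe per Adipoq was 45.2 and 1.04 in these libraries. The part of amount in the group differences below was not tested. Lep per Adipoq was 0.225, 0.106, 0.0497 and 0.241 in FSP 1 to FSP 4, against 0.147, 0.154, 0.154 and 0.224 in HFD 1 to HFD 4 and 0.0213, 0.0582 and 0.0285 in ND 1 to ND 3. All 4 HFD libraries lay above all 3 ND libraries, HFD 1 included, whose Adipoq was within the ND range. The geometric means were 0.167 in HFD and 0.0328 in ND, a difference of 2.35 log2 units or 5.09-fold (exact permutation p = 0.0286, two-sided, the smallest possible, and 0.229 adjusted over 24 ratio tests). Of 10295 genes, 0.146% had ratios to Adipoq that were higher in HFD without overlap, and the median gene's ratio was 1.71 log2 units lower. Since Adipoq itself tended to be higher in HFD, few genes could have a higher ratio. That share does not compare Lep with other fat genes, and Lep was among the 10295 through its FSP level. The difference stayed between 2.03 and 2.76 when any HFD or ND library was left out. FSP against ND differed by 1.99 log2 units and overlapped (exact permutation p = 0.0857), since FSP 3 lay between ND values. In that comparison 0.00971% of genes had a higher ratio in FSP without overlap, a share with the same limits.

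Cfd per Adipoq moved the other way. It was 1.10, 1.07, 3.4 and 0.949 in FSP 1 to FSP 4, against 1.26, 1.15, 0.688 and 0.610 in HFD 1 to HFD 4 and 4.31, 5.81 and 6.88 in ND 1 to ND 3. Every HFD and every FSP library lay below every ND library. HFD differed from ND by −2.65 log2 units (exact permutation p = 0.0286, two-sided, 0.229 adjusted), and FSP from ND by −1.99 (exact permutation p = 0.0571, two-sided). Since Adipoq itself tended to be lower in ND, 48.8% of genes had a lower ratio in HFD without overlap, and 4.23% had a difference below that of Cfd. In FSP against ND, 2.79% of genes had a lower ratio without overlap and 12.2% a difference below that of Cfd.

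Fabp4 per Adipoq was 8.68 in HFD and 29.2 in ND as geometric means, without overlap (−1.75 log2 units, exact permutation p = 0.0571), which is close to the median gene. Car3 per Adipoq was also lower without overlap in HFD (−0.83, exact permutation p = 0.0571) and in FSP (−0.74, exact permutation p = 0.0286) than in ND. These differences were smaller than those of most genes, since the median gene's ratio was lower by 1.71 log2 units in HFD and by 1.6 in FSP, and 92.1% and 95.6% of genes had a difference below that of Car3. Lpl per Adipoq was the steadiest, with geometric means of 1.49 in FSP, 1.59 in HFD and 1.41 in ND and overlap in each comparison. Retn, Plin1 and Lipe ratios overlapped too. None of the 24 ratio tests passed after adjustment, which a single test at the smallest possible p of 0.0286 could not do.

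**Figure D4:**
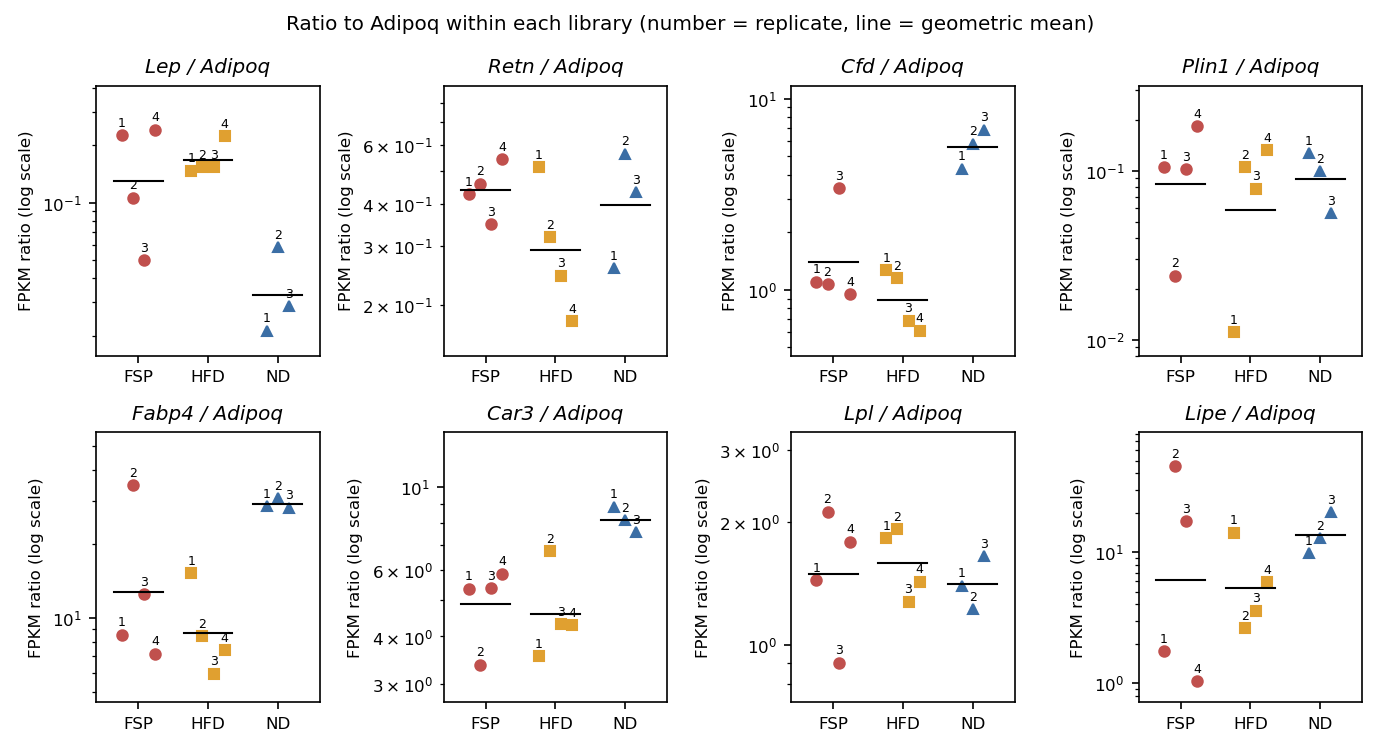
FPKM of 8 genes divided by that of Adipoq in the same library on a log axis, with the FSP, HFD and ND groups from left to right, replicate numbers above the points and lines at geometric means. Lep per Adipoq is above ND in all 4 HFD libraries (0.147 to 0.224 against 0.0213 to 0.0582), Cfd per Adipoq is below ND in all FSP and HFD libraries, and Lpl per Adipoq overlaps in all groups.

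Genes that followed the mean log2 level of the 9 most closely were named by rank of r over the 11 libraries among 10288 tested genes, of which 19 (0.185%) reached 0.9. Plin4, a droplet protein of white adipocytes, led with r = 0.989. Its level was 2.78, 0.147, 0.939 and 4.30 FPKM in FSP 1 to FSP 4, against 0.326, 1.57, 1.24 and 1.14 FPKM in HFD 1 to HFD 4 and 0.883, 0.907 and 0.535 FPKM in ND 1 to ND 3, so FSP 4 and FSP 1 were highest again. Fads3, a member of the fatty acid desaturase family, had r = 0.984, Nnat (neuronatin) 0.974, Ccdc80 0.961, and Aoc3, an amine oxidase of adipocytes and smooth muscle, 0.954. Sncg (gamma-synuclein) and Prkar2b, a regulatory subunit of protein kinase A, had 0.948 and 0.937. The first 15 also held P3h4, the integrin-linked kinase Ilk, Gamt, an enzyme of creatine synthesis, Rbp4, the carrier of retinol, Tmem218 and Phlda3, the last at 0.922.

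Of 28 other adipocyte markers in the table, 10 had r of at least 0.9 with the mean of the 9 genes and 6 had r below 0.3. The first group comprised Plin4, Nnat, Mrap, Aoc3, Trarg1, Mest, Sncg, Slc7a10, Pnpla3 and Adrb3, the beta-adrenergic receptor of fat cells, with mean levels from 0.124 to 8.52 FPKM. The second included Aqp7, Pparg, Gpd1, Cidec and Cd36, of which Gpd1 averaged 206 FPKM and Cidec 51.4 FPKM. Enterocytes are also known to use Cidec, Cd36 and Gpd1 when they handle dietary fat. Lipe, at 24.8 FPKM and r = 0.195 with the mean, resembled the second group. An r below 0.3 does not set genes apart, since the median over 10288 tested genes was 0.283. The share of 0.185% of tested genes at 0.9 or more covers only 4 of the 10, the others being under 1 FPKM.

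**Figure D5:**
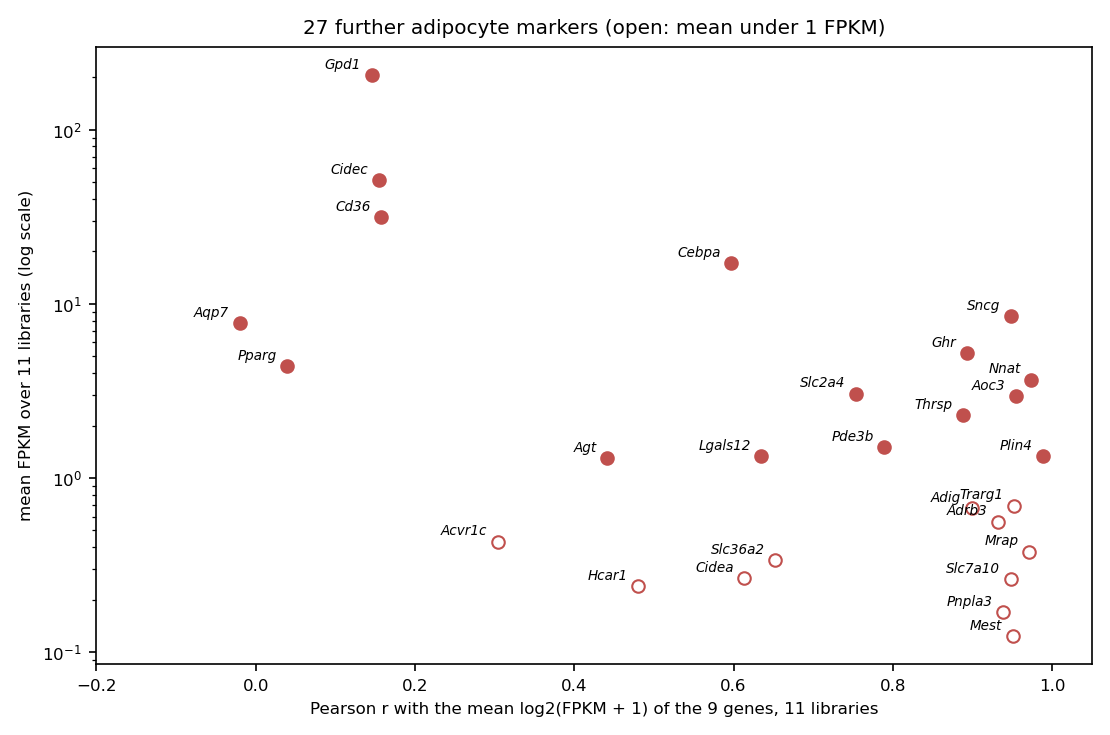
A set of 27 of the 28 further adipocyte markers, each by its Pearson r with the mean log2(FPKM + 1) of the 9 genes over 11 libraries (horizontal axis) and its mean FPKM (vertical log axis), filled where the mean is at least 1 FPKM. Plin4 (r = 0.989) is farthest right, and Gpd1, Cidec and Cd36, the most abundant, lie at r below 0.2.

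Of the 16 further markers tested, 3 rose and 0 fell in HFD against ND, where 5.36% and 15.1% of all tested genes did. All 3 came from the weakly correlated group. Of the 10 markers with r of at least 0.9, only 4 were tested. Those had an SE of 0.43 to 0.71, against 0.21 to 0.38 for the 3 that rose, so these calls do not compare the groups of markers. Cidec, a droplet fusion protein, averaged 68.2 ± 13.9 FPKM in HFD and 22.2 ± 9.99 FPKM in ND (SD, n = 4 and 3; log2 change 1.66 ± 0.26, limma adjusted p = 0.0020). Pparg, the regulator of adipogenesis, averaged 6.89 ± 2.03 FPKM in HFD and 2.37 ± 0.084 FPKM in ND (log2 change 1.19 ± 0.21, limma adjusted p = 0.0037). Cd36, a fatty acid transporter, rose by 1.23 ± 0.38 (log2, SE, limma adjusted p = 0.041). In FSP against HFD, Pparg fell by 0.81 (SE 0.20, limma adjusted p = 0.045) to 3.44 ± 0.891 FPKM in FSP, and in FSP against ND Cidec rose by 1.40 (SE 0.26, limma adjusted p = 0.032). The r of Cidec, Pparg and Cd36 with the mean of the 9 genes was 0.15, 0.04 and 0.16.

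Partners of the member proteins were counted in the same way. In HFD against ND, 5.36% of all tested genes rose and 15.1% fell. In FSP against HFD 3.74% were called, and in FSP against ND 1.03%. Among 9 tested genes of lipolysis, G0s2, the inhibitor of adipose triglyceride lipase, rose in HFD against ND (10.7 ± 4.76 FPKM in HFD and 1.15 ± 0.674 FPKM in ND; log2 change 2.35 ± 0.38, limma adjusted p = 0.0022), and the other 8 did not pass. Among 8 partners of lipoprotein lipase, 2 rose in HFD against ND, its inhibitors Apoc3 (2.19 ± 0.56) and Angptl8 (1.03 ± 0.18), and 2 fell, among them Angptl4 (−1.20 ± 0.28), an inhibitor of the enzyme. None of these 8 passed in FSP against HFD or FSP against ND. Of 3 tested adipokine receptors, Adipor1 fell in HFD against ND (28.8 ± 4.51 FPKM in HFD and 39.9 ± 1.40 FPKM in ND; log2 change −0.47 ± 0.13, limma adjusted p = 0.029). The 4 tested genes of the alternative complement pathway, in which factor D acts, gave no call in any comparison.

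Of 8 tested adipogenic transcription factors, 3 rose (Pparg, Cebpb and Srebf1) and 2 fell (Cebpd and Rxra) in HFD against ND. Cebpd, an early factor of adipogenesis, had a log2 change of −1.16 ± 0.17 in HFD against ND and 0.91 ± 0.16 in FSP against HFD (SE, limma adjusted p = 0.0017 and 0.018). Of 14 tested lipid storage enzymes that enterocytes share, 3 rose in HFD against ND (Dgat2, Plin2 and Pck1) and 2 fell (Acaca and Acly), and Me1 fell by 1.33 in FSP against HFD (SE 0.27). The r of these named genes with the mean of the 9 ran from −0.27 (Me1) to 0.43 (Acaca).

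Of 25 paralogs of the members in the table, 2 had r of at least 0.9 with the mean of the 9 genes, Plin4 (0.989) and Car5b (0.943, at a mean of 0.241 FPKM), and 16 had r below 0.3. The median r over all tested genes was 0.283. Of the 13 paralogs tested, 3 rose and 2 fell in HFD against ND, where 5.36% and 15.1% of all tested genes did. Fabp1, the fatty acid binding protein of liver and proximal enterocytes, averaged 12448 ± 1508 FPKM in HFD and 2269 ± 1978 FPKM in ND (log2 change 2.96 ± 0.60, limma adjusted p = 0.0070). Fabp6, the bile acid binding protein of the ileum, averaged 1172 ± 1247 FPKM in FSP, 2.86 ± 1.34 FPKM in HFD and 5640 ± 4801 FPKM in ND. Car2 averaged 5.24 ± 2.89, 21.7 ± 3.05 and 2.38 ± 1.64 FPKM in the same order, with log2 changes of 2.84 ± 0.35 for HFD against ND and −1.97 ± 0.33 for FSP against HFD, while Car3 passed in neither. The r of Fabp1, Fabp6 and Car2 with the mean of the 9 genes lay between −0.22 and 0.13. All 8 tested distal small intestine genes fell in HFD against ND and 5 rose in FSP against HFD. Of all tested genes, 15.1% fell and 2.83% rose in these comparisons. The part of intestinal position in the members' values was not tested.

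Markers of tissues that surround fat moved with the members in part. Summed FPKM of 12 stroma and fibroblast genes ran from 32.2 to 106 in FSP, 31.4 to 103 in HFD and 60.1 to 115 in ND, and their mean log2 level had r = 0.74 with that of the members. Smooth muscle genes summed to 107 to 823 FPKM in FSP, 149 to 592 in HFD and 440 to 624 in ND (r = 0.65), with the lowest sums in FSP 2 and HFD 1. These libraries also had the lowest mean log2 level of the members, 1.49 in FSP 2 and 1.88 in HFD 1. For Adipoq alone, FSP 2 was the lowest and HFD 1 lay above ND 3 and FSP 2. Vessel endothelium genes summed to 10.5 to 37.9 FPKM in FSP, 10.7 to 15.4 in HFD and 11.8 to 18.9 in ND (r = 0.64), and mesothelium genes to 5.73 to 18.7, 4.07 to 22.9 and 14.2 to 24.9 FPKM (r = 0.43). B and plasma cell genes summed to 86.9 to 815 FPKM in FSP, 125 to 320 in HFD and 38.5 to 64.7 in ND, with r = 0.08. Pancreatic acinar markers summed to at most 0.164 FPKM in any library, with r = 0.52. Lists chosen for other reasons had r of similar size, as for lipid storage enzymes (0.67), alternative complement genes (0.65), adipogenic factors (0.63) and hepatocyte markers (0.54). These lists are not free of genes that follow the members, such as Scd1 (r = 0.89) among the lipid storage enzymes. In the hepatocyte list Hp had r = 0.89, while 5 of the 6 genes lay below 0.3 and the median was −0.14. Enterocyte genes had r = 0.30 and proximal small intestine genes −0.02. The table held 7 brown adipocyte markers, of which 1 was tested, Cox7a1, and 4 stayed under 1 FPKM in every library. Cox7a1, a subunit of cytochrome c oxidase, averaged 216 ± 38.3 FPKM in FSP, 249.97 ± 23.7 FPKM in HFD and 97.2 ± 25.6 FPKM in ND, and rose in HFD against ND (log2 change 1.38 ± 0.19, limma adjusted p = 0.0012) and in FSP against ND (1.16 ± 0.19, limma adjusted p = 0.022), with r = 0.02. The part of these tissues in the members' values was not tested.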

How the data were processed

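Total RNA of mouse small intestine was extracted with TRIzol and made into libraries with the VAHTS Universal V6 kit, per the labels' protocols. Build mm10 and the tools fastp, HISAT2, HTSeq and R 3.2.0 stand in the submitters' processing notes. Which annotation, strand setting and FPKM tool were used is not given in the sources used here. Per the file headers, the authors deposited FPKM, and no counts were used. The single-library tables of FSP list other genes than those of HFD and ND (24250 against 24294), which cannot be told apart from the group.

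Fragments per gene and library totals were recovered from whole-fragment steps of the FPKM values, and the members' values lay within 0.13 of a whole fragment. Tests used log2(FPKM + 1) in limma 3.58.1 (R 4.3.3, intensity trend, all 11 libraries in 1 fit) over 10296 genes with a mean of at least 1 FPKM. P-values were adjusted by Benjamini-Hochberg over these genes, with a threshold of 0.05. For members, two-sided exact permutation tests were added (smallest p 0.0286 in each comparison, adjusted over 27 tests), as were correlations with 100000 permutations and ratios to Adipoq. The limma step was tested on simulated data. Members, the 22 other gene lists and the rule for named genes (all members, list genes past the threshold, the 15 genes most like the members' mean) were chosen with earlier results of these data known. Some genes that this rule names are not reported here. Coordinates are of GRCm38 (mm10). Alternatives covered pseudocounts, filters, scalings, a fit of the compared groups alone, array weights, the replicate block and leaving out each library.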

Additional observations from a re-analysis of the deposited data

Results flagged for a closer look

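In 34 groups of 4 libraries (levels of 9 genes and ratios of 8 genes to Adipoq, in FSP and HFD), the highest or lowest library was compared with its neighbour. In 3 the gap exceeded Dixon's critical value for 4 samples, which chance alone passes in about 1 in 20 groups. Cfd per Adipoq in FSP 3 was 3.4, against 0.949 to 1.10 in the other FSP libraries, with a gap of 0.882 of the range on the log2 scale. Car3 per Adipoq in FSP 2 was the lowest of the FSP libraries, with a gap of 0.834 of the range, and rests on 25 Adipoq fragments. Lep per Adipoq in HFD 4 was 0.224, against 0.147 to 0.154 in the other HFD libraries, with a gap of 0.894 of the range.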

How the results depend on the processing

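Leaving aside single libraries, 266 of 282 recomputed log2 changes of members kept their direction and side of the threshold, 10 passed it and 6 changed sign. The signs changed for Lipe in HFD against ND (−0.040, equal totals), Lep in FSP against HFD (−0.23, pseudocount 0.01), Lpl in FSP against HFD (−0.0029 and −0.025 with pseudocounts 0.1 and 0.01, −0.0011 with median-ratio scaling) and Cfd in FSP against ND (0.38, array weights). Of the 10, 9 arose with array weights and the other was Lep in HFD against ND with the 2 groups alone. In numbers of members called, HFD against ND gave 1 with the 2 groups alone, where 2199 of 10296 genes were called, and 6 with array weights, and FSP against ND 3 with array weights. The r of Lipe with Adipoq was −0.11 with median-ratio scaling. The cause was not tested.

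Genes called, HFD against ND, were 7217 with array weights and 852 to 1907 without single libraries. In FSP against HFD they were 117 without a filter, 245 with median-ratio scaling, 76 with 2 groups alone, 1592 with array weights and 48 to 461 without single libraries. In FSP against ND they were 58 without a filter, 192 with quantile normalization, 1068 with array weights and 13 to 123 without single libraries. No member was called without any single library, in each comparison 0 to 0. The smallest p is 0.0667 for 4 libraries against 2 and 0.10 for 3 against 3, so no ratio test against ND can pass without a library of either group.

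Without single libraries, log2 changes that changed sign ran from −0.45 to 0.96 (Adipoq), −0.65 to 1.3 (Car3) and −0.70 to 0.82 (Lpl) in FSP against HFD, and from −0.76 to 0.62 (Cfd), −0.26 to 0.85 (Fabp4) and −0.053 to 1.90 (Car3) in FSP against ND. Log2 ratios to Adipoq that changed sign ran from −0.99 to 0.20 (Plin1) in HFD against ND. For FSP against HFD they ran from −0.31 to 1.10 (Plin1), −0.033 to 0.28 (Car3), −0.66 to 0.10 (Lep), −0.26 to 0.15 (Lpl) and −0.75 to 1.07 (Lipe). In FSP against ND they ran from −0.49 to 0.49 (Plin1), −0.17 to 0.39 (Retn) and −0.090 to 0.32 (Lpl). Other changes kept their sign but moved by over 1.5 times in many cases, as for Retn (0.052 to 1.28), Fabp4 (0.035 to 1.14), Cfd (0.23 to 1.6) and Lep (0.18 to 0.82) in FSP against HFD, Fabp4 (−0.58 to −0.023), Car3 (0.14 to 1.22), Retn (0.30 to 0.66) and Lipe (0.0057 to 0.15) in HFD against ND, and Adipoq (0.64 to 2.05), Retn (0.56 to 1.79) and Lpl (0.62 to 2.14) in FSP against ND. Of 8 members, 7 correlated with Adipoq past the threshold, and 6 to 7 without single libraries, Cfd (r = 0.604 without FSP 2 and 0.527 without FSP 4) being the one lost.

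Replicate numbers were not read as pairs: libraries of the same number had r between −0.10 and 0.45, and 0 of 11 correlated best with their own number. With the replicate as a block, 0 members and 2357, 337 and 77 genes were called for HFD against ND, FSP against HFD and FSP against ND. Plin1 was below the filter and Lep fell below it without FSP 4. Depth limits Plin1 in FSP 2 and HFD 1 (1 fragment each) and Lep in ND (4 to 12 fragments). Fragments are not independent molecules after amplification, and counting errors cover counting alone.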
